A study of Mus musculus with 2 samples.

Results

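Glycinergic amacrine cells, the inhibitory interneurons of the inner retina that release glycine, were taken from single-cell RNA sequencing of mouse retinas after lipopolysaccharide (LPS), a bacterial endotoxin, had been injected into the vitreous at 0.5 µg per eye. They were picked cell by cell from unique molecular identifiers (UMIs, the counted RNA molecules). A member had at least 500 genes, under 25% mitochondrial UMIs and at least 2000 UMIs. It had at least 2 UMIs of Slc6a9, which encodes the glycine transporter GlyT1, and more of them than of Gad1 and Gad2, the enzymes that make GABA. It had a UMI of the amacrine genes Pax6, Tfap2a, Tfap2b or Slc32a1, under 0.1% of UMIs from the Müller glia genes Rlbp1, Glul, Slc1a3, Dkk3 and Crym, at most 1 UMI of Slc17a6 and at most 2 of Trpm1. This gave 596 cells of the 12936 that passed the gene and mitochondrial filter. The knockout library supplied 321 of its 4662 cells and the control library 275 of its 8274.

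The knockout library came from GLAST-CreER; Atg5fl/fl mice that had received LPS and 4-hydroxy-tamoxifen. GLAST is the Slc1a3 protein, and its promoter directs the drug-activated Cre to Müller glia, where it removes a floxed part of Atg5, a gene needed to build autophagosomes. The control library came from Atg5fl/fl mice that had received LPS, with neither Cre nor tamoxifen listed. Genotype, Cre and drug therefore cannot be told apart, and every mouse carried the floxed allele and had LPS. Each library was made from 6 pooled retinas, so there was 1 library per group. No test between groups was possible, no difference below has a replicate check, and all intervals are 95% intervals that cover counting error only. The sources used here do not give sex, age or the time between injection and harvest.

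Amacrine cells shape the signals that pass from bipolar to ganglion cells. The glycinergic ones mostly have narrow fields and reach across the layers of the inner plexiform layer. They fill vesicles with glycine through the transporter encoded by Slc32a1, and they load glycine from outside through GlyT1 rather than through the GlyT2 of spinal neurons, Slc6a5. The best known type, the AII cell, carries rod signals to the cone pathway through gap junctions made of the Gjd2 protein.

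Members had a median of 10021 UMIs per cell in the knockout library and 9708 in the control library, with lower quartiles of 6581 and 4348 UMIs (in subcluster 1 of those described later, medians of 11047 and 7674 UMIs), and medians of 3953 and 3792 genes and of 3.54% and 3.98% mitochondrial UMIs. Members held 3658731 UMIs in the knockout library and 2888141 in the control library. The libraries shared 15 barcodes, of which 1 belonged to a knockout member and 0 to a control member. RNA of other cell types was present in the members and differed between libraries. Rod markers summed to 807 counts per 1000000 UMIs (CPM) in the knockout library and 1865 CPM in the control library, and all 16 were detected in both. Neutrophil markers summed to 97.3 CPM against 1224 CPM, and 1747 of the 3534 control UMIs lay in 1 cell. Ltf and Ly6g were at 0 in members of both libraries, and Ngp in control members. Monocyte and macrophage markers summed to 18.9 CPM against 195 CPM, with Csf1r, C1qc, Aif1, Ms4a7, Ccr2 and Adgre1 at 0 in knockout members and C1qa, C1qb and Ms4a7 at 0 in control members. Erythroid markers summed to 108 CPM against 12.1 CPM. Endothelial markers summed to 225 CPM against 298 CPM, and horizontal cell markers to 707 CPM against 281 CPM.

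The label was set against the markers of these cells. The selection itself used Slc6a9, Slc32a1, Pax6 and Tfap2b, so their levels only describe the choice. Slc6a9 summed to 646 CPM in knockout members and 936 CPM in control members, with a median of 6 UMIs per knockout member and 9 per control member. Slc32a1 was at 247 CPM in knockout and 244 CPM in control members, and Pax6, the master regulator of eye development, at 671 and 735 CPM. Tfap2b, an AP-2 transcription factor of amacrine cells, was at 753 CPM against 610 CPM. The selection did not use Ebf1 and Ebf3, transcription factors known from part of the glycinergic types. Ebf1 was at 356 CPM in knockout and 525 CPM in control members, against 27.7 and 13.8 CPM in the GABAergic amacrine cells of the same libraries. Over all kept cells that were not members, Ebf1 was at 184 and 117 CPM. Ebf3 was at 129 CPM in knockout and 270 CPM in control members, against 7.88 and 4.76 CPM in GABAergic cells. Those GABAergic cells were picked by the same rule with Slc6a9 and Gad1 plus Gad2 exchanged, which gave 427 knockout and 278 control cells. Slc32a1 and Tfap2b were higher in them than in members. Slc32a1 was at 318 CPM in knockout and 329 CPM in control GABAergic cells, Tfap2b at 882 and 903 CPM. Pax6 was at 605 and 687 CPM there, close to its level in members. Slc6a5 (GlyT2) was at 132 CPM in knockout and 145 CPM in control members. At the edge of the rule, 38 knockout and 27 control members had exactly 2 Slc6a9 UMIs, while 80 knockout and 37 control cells met all else with 1 Slc6a9 UMI and no Gad UMI. Ebf1 was at 558 CPM in the knockout cells just inside and 507 CPM in those just outside, and at 970 and 279 CPM in the control cells. A Gad1 or Gad2 UMI was present in 90 knockout and 67 control members.

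Set beside the GABAergic amacrine cells of the same library, glycinergic cells had at least 1.5-fold more of 1010 of 11714 genes in both libraries (8.62%), and at least 1.5-fold less of 1096 (9.36%). These are descriptions, since all genes of cells chosen on expression are tied to the choice. Lamp5, a lysosome-associated membrane protein of neurons, was at 867 CPM in glycinergic and 45.7 CPM in GABAergic cells of the knockout library, and at 789 and 28.1 CPM in those of the control library. Prom1, a membrane protein of cell protrusions, was at 236 against 15.02 CPM in the knockout library and 549 against 31.4 CPM in the control library. Neurod2, a neurogenic transcription factor, was at 209 against 11.8 CPM and at 128 against 6.91 CPM. Drd2, a dopamine receptor, was at 97.0 against 4.91 CPM and at 101 against 2.86 CPM. Sct, which encodes the hormone secretin, was at 29.8 and 23.9 CPM in glycinergic cells, against 2 knockout and 1 control UMI in all GABAergic cells. Actc1 (cardiac actin), Nxph2, Fgfr4 (a fibroblast growth factor receptor), Hao2, Mapk12, Apobec1, Slc6a12 (a betaine and GABA transporter), Nhlh1 and Ccdc24 completed the 15 with the largest ratios, beside Ebf3.

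On the other side, Cbln2, a secreted synapse organiser, was at 0.820 CPM in glycinergic and 174 CPM in GABAergic cells of the knockout library, and at 2.08 and 218 CPM in those of the control library. C1ql2, a relative of complement C1q secreted at synapses, was at 3.83 against 271 CPM and at 1.38 against 249 CPM. Slc5a7, the choline transporter of starburst cells, was at 0.273 against 43.0 CPM and at 0.346 against 44.3 CPM. Slc35d3 and Zfp488 had 0 UMIs in all glycinergic cells, and Mn1, Kit and Pappa2 were also among the 8 lowest.

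**Figure D1:**
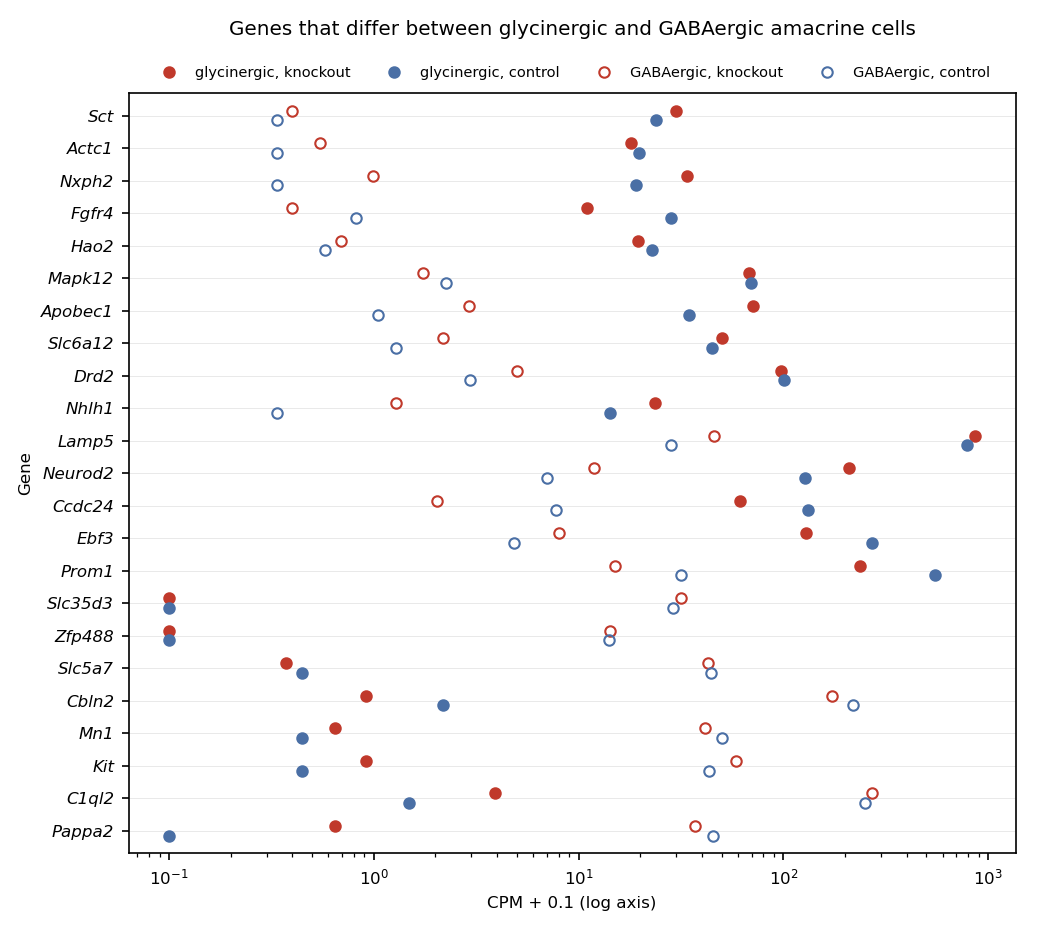
Levels (CPM plus 0.1, log axis) of the 15 genes with the largest and the 8 genes with the smallest glycinergic over GABAergic ratio, in knockout (red) and control (blue) libraries; filled points are glycinergic and open points GABAergic amacrine cells. The filled and open points lie apart for every gene in both libraries.

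By gene group, and against 8.62% of all genes higher and 9.36% lower, 16 of 25 measured antigen presentation genes and 9 of 13 mitochondrially encoded genes were at least 1.5-fold higher in glycinergic than in GABAergic cells of both libraries, and 0 of either group were as much lower. mt-Co1, a subunit of cytochrome oxidase, was at 6384 CPM in glycinergic and 3439 CPM in GABAergic cells of the knockout library, and at 5586 and 3294 CPM in the control library. The GABAergic cells were deeper, with medians of 14587 (knockout) and 14657.5 (control) UMIs, against 10021 and 9708 in glycinergic cells. Their mitochondrial medians were 2.38% and 2.11%, against 3.54% and 3.98%. The part of depth and cell quality was not tested. Of 13 measured neuropeptide genes, 9 were lower in glycinergic cells and 2 higher. Cartpt, a peptide precursor, was at 37.4 against 2983 CPM in the knockout library and 49.5 against 2738 CPM in the control library. Of 28 glutamate receptor genes, 11 were lower and 3 higher. Of 34 transcription factors, 15 were lower and 11 higher. Meis2 was at 25.7 against 1088 CPM and at 45.7 against 1203 CPM, while Prox1, a homeobox factor of AII cells, was at 516 against 27.4 CPM and at 522 against 45.5 CPM. Tcf4, a basic helix-loop-helix factor, was at 1167 against 193 CPM and at 1439 against 188 CPM.

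Clustering split the members into 11 subclusters. A subcluster is named here only where a marker list met fixed terms, and the genes that lead it describe the split without testing it. Subcluster 2 (65 knockout and 62 control cells) was AII-like, with all 5 AII markers detected and the highest mean of the list. All 5 were also detected in subclusters 3, 4, 6, 8 and 9. Gjd2, the gap junction protein connexin 36, was at 404 CPM in its knockout and 455 CPM in its control cells. In this subcluster Prox1 was at 850 CPM, Dab1, an adaptor of reelin signalling, at 3874 CPM, and Nfia, a nuclear factor I protein, at 997 CPM. Dab1 thus weighed most in the mean. Calb2, also on the AII list, went the other way, at 284 CPM here and 393 CPM in subcluster 1. The dopamine receptors Drd2 and Drd4 were at 226 and 247 CPM. Actc1, Gpr12, Mapk12, Gjd2 and Sct led it. Subcluster 8 (19 knockout and 9 control cells) had nearly the same mean of AII markers, 1286 CPM against 1287 CPM. Its median was 3013.5 UMIs, and the neutrophil and myeloid genes Stfa2l1, Cstdc4, S100a8, Cd14 and S100a9 led it, with 805 of 846 S100a8 UMIs in 1 cell, so it stayed unnamed.

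Subcluster 1 (45 knockout and 89 control cells) was led by Wnt7b, a secreted signal, Fam131c, Esr1, Trabd2b and Agt (angiotensinogen). Esr1, the oestrogen receptor alpha, was at 901 CPM in it and 18.6 CPM in the other members. Igf1, insulin-like growth factor 1, was at 515 CPM, Ebf1 at 821 CPM, Ebf3 at 713 CPM and Tfap2c at 202 CPM, while Tfap2b was at 14.0 CPM. Gadd45a, a growth arrest gene, was at 775 CPM in subcluster 1 and at most 163 CPM in each of the other subclusters. The neurofilament gene Nefm was at 421 CPM, against at most 75.2 CPM elsewhere.

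Other subclusters had few cells. Subcluster 5 (20 knockout and 25 control cells) had the highest Ebf1, 2030 CPM, and its leading genes included Mafa, Il1rapl2, Cdh22 and Mctp2. Subcluster 4 (31 and 22 cells) was led by Cck (cholecystokinin), Cntnap5b, L3mbtl4, Kcnmb2 and Ccl4. Of its 156 Ccl4 UMIs, 151 lay in 1 cell. It had the most Neurod6 (64.4 CPM), which marks the nGnG type (neither GABAergic nor glycinergic). The list's mean was higher in subcluster 11, so the name was not given. Subcluster 6 (27 and 10 cells) had Kcnd2, Shisa9, Trhde and Alcam among its leading genes. Subcluster 7 (28 and 9 cells) was led by Ankfn1, Tmem132c, Trhr, Npsr1 and Pvalb (parvalbumin). Subcluster 10 (19 and 3 cells) was led by Htr2c, Nxph1, Slc17a8, Plpp4 and Lhx2. Slc17a8 encodes VGLUT3, the vesicular glutamate transporter of a known glutamatergic amacrine type, and stood at 1065 CPM there. Subcluster 11 (10 and 6 cells) was led by Adh6b, Nppc, Adamtsl1, Penk (proenkephalin) and Sgcz. With 1 library per group, a subcluster held mostly by 1 library, such as 10, may be that library and not a cell type. Subcluster 3 (48 and 22 cells) was led by the endothelial genes Ctla2b, Tmem252, Ctla2a and Adgrf5 and by Lhx1, in at most 6 cells each. Subcluster 9 (9 and 18 cells) was led by the cone genes Opn1sw, Pde6h and Opn1mw, in at most 4 cells each, and by March1 and Rgs20. The starburst genes Chat and Slc18a3 and the catecholamine gene Th stayed under 10 CPM in every subcluster.

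**Figure D2:**
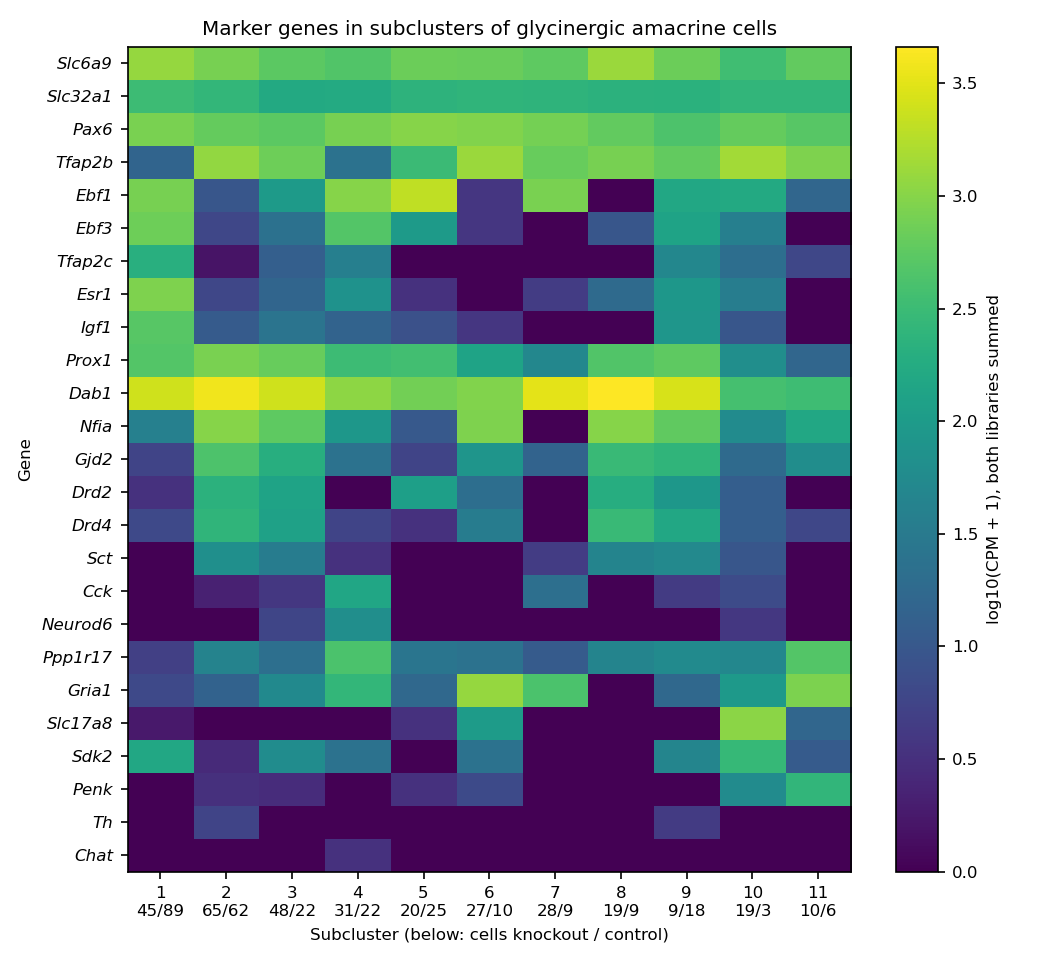
Level of 25 marker genes, as log10 of summed CPM plus 1 over both libraries (colour), in the 11 subclusters of glycinergic amacrine cells, with the number of knockout and control cells under each. Ebf1 is bright in subclusters 1, 4, 5 and 7, where Nfia is dark or faint, and Nfia, Gjd2 and Drd4 are bright in the AII-like subcluster 2 and in 8.

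The first question between libraries was how many glycinergic amacrine cells each held. They were 6.89% (6.18 to 7.65) of cells kept in the knockout library and 3.32% (2.95 to 3.73) in the control library. Kept cells had a median of 6808 UMIs in the knockout library and 1396 in the control library, and the rule asks for 2000. Among kept cells with at least 2000 UMIs, the share was 9.12% (8.19 to 10.1) in the knockout library and 9.27% (8.25 to 10.4) in the control library, so these intervals overlapped almost wholly. Per 100 GABAergic amacrine cells there were 75.2 (64.8 to 87.1) glycinergic cells in the knockout library and 98.9 (83.4 to 117) in the control library. This count moved with the settings. Where Müller genes had to be under 0.05% of UMIs, it was 101 in the knockout library and 109 in the control library. With cells thinned to 2000 UMIs before the rule, it was 64.5 in the knockout library and 119 in the control library.

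The make-up of the glycinergic cells also differed. Cells with at least 2 UMIs of Ebf1, Ebf2 and Ebf3 together, and fewer than 2 of Nfia, Gjd2 and Tfap2b, were 23.4% (18.8 to 28.4; 75 cells) of knockout members and 44.4% (38.4 to 50.5; 122 cells) of control members. Cells with the opposite pattern were 57.9% (52.3 to 63.4; 186 cells) of knockout and 41.5% (35.6 to 47.5; 114 cells) of control members. Cells with both were 16.2% against 10.2%, and cells with neither 2.49% against 4.00%. When every member was thinned to 2000 UMIs and 1 UMI was asked for, the Ebf share was 24.3% (19.7 to 29.4) against 42.2% (36.3 to 48.3). The selection may bear on these classes. Just outside the Slc6a9 cutoff, Ebf1 was at 507 CPM in 80 knockout cells and 279 CPM in 37 control cells. Dkk3, capped as a Müller gene, was at 255 CPM in knockout and 348 CPM in control cells of subcluster 1. In the AII-like subcluster it was at 5.92 and 4.37 CPM. The part of these limits in the shares was not tested. Tfap2b is also a gene of the selection rule and so enters these classes. With Nfia and Gjd2 alone on the other side, a choice made after seeing the data, the Ebf class was 34.9% (29.7 to 40.4) of knockout and 48.7% (42.7 to 54.8) of control members, and the opposite class 48.9% (43.3 to 54.5) against 38.9% (33.1 to 44.9), so the difference was smaller and the intervals of the opposite class overlapped. In cells with rod RNA, with medians of 3956.5 UMIs in the knockout and 4304 UMIs in the control library, an Ebf1 UMI was present in 3.67% and 3.01%. In members it was present in 41.1% and 54.5%. Subcluster 1 alone took 14.0% of knockout and 32.4% of control members, a description only, since some of its leading genes differed. In its cells Wnt7b was at 61.3 CPM in knockout and 61.5 CPM in control cells and Trabd2b at 79.7 and 70.3 CPM, but Esr1 was at 713 and 1017 CPM and Agt at 163 and 117 CPM. Both pools held cells of both sexes. Cells with at least 2 Xist UMIs and under 2 UMIs of Y-linked genes were 18.7% of knockout and 18.9% of control members, and cells with the opposite pattern 62.3% and 60.0%. Xist summed to 409 CPM against 314 CPM and Ddx3y, on the Y chromosome, to 66.4 CPM against 56.1 CPM (ratio 1.18). The other Y-linked genes Kdm5d, Eif2s3y and Uty had ratios of 0.643, 0.814 and 0.835. Within the AII-like subcluster Xist was at 344 CPM in knockout and 82.9 CPM in control cells (ratio 4.14, 3.21 to 5.41), while its Ddx3y ratio was 0.788 (0.524 to 1.18).

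**Figure D3:**
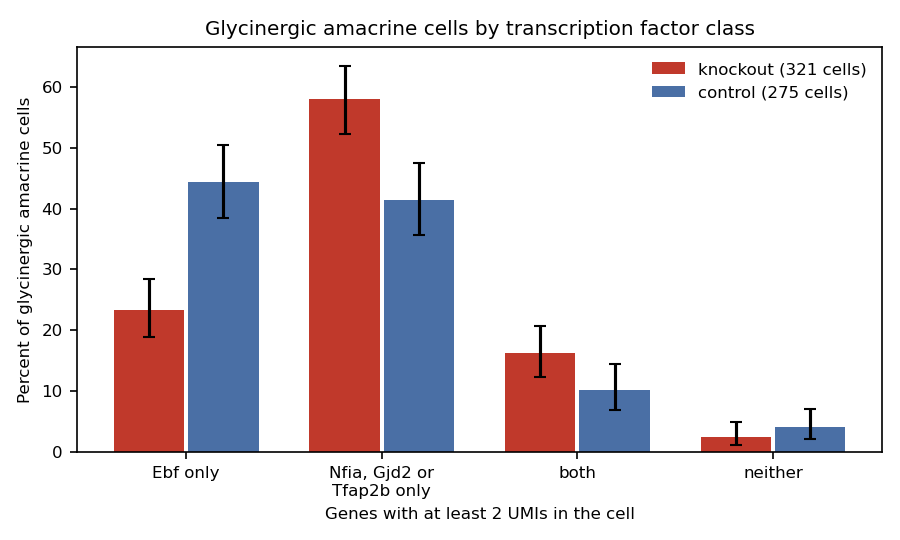
Percent of glycinergic amacrine cells in 4 classes set by UMIs of Ebf1 to Ebf3 and of Nfia, Gjd2 and Tfap2b, in the knockout (red, 321 cells) and control (blue, 275 cells) library, with exact binomial 95% intervals. The Ebf class is 23.4% of knockout and 44.4% of control members, and the intervals of these 2 bars do not overlap.

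Gene levels were then set against each other between libraries as a ratio of summed CPM, knockout over control. Of 8777 genes with at least 100 UMIs, 360 (4.1%) were at least 1.5-fold higher in knockout members and 346 (3.94%) at least 1.5-fold lower. The targeted gene comes first. Atg5 was at 35.5 CPM in knockout and 40.5 CPM in control members, a ratio of 0.877 (0.678 to 1.14). Cre is directed to Müller glia, and the position of these reads relative to the floxed part was not examined, so this value does not check the deletion.

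Several genes with the most uneven ratios lead single subclusters that the libraries held in unequal numbers. Plpp4, a lipid phosphatase, was at 26.5 CPM in knockout and 2.77 CPM in control members (ratio 9.57, 4.67 to 22.8). Slc17a8 was at 99.5 CPM against 15.9 CPM (ratio 6.25, 4.59 to 8.68), and Nxph1, a neurexin ligand, at 228 CPM against 62.3 CPM (ratio 3.66). With each subcluster given the same weight in both libraries, the log2 ratio of Nxph1 was -0.59. All 3 lead subcluster 10, where Slc17a8 was at 1052 CPM in the 19 knockout cells and 1171 CPM in the 3 control cells. Pvalb, the calcium buffer that leads subcluster 7, was at 37.7 CPM against 4.50 CPM (ratio 8.38). Its level within subcluster 7 was 464 CPM in the 28 knockout and 13.5 CPM in the 9 control cells. Pcp4, a calmodulin regulator, was at 776 CPM against 243 CPM (ratio 3.19). Onecut2, a transcription factor of horizontal cells, was at 77.1 CPM against 8.66 CPM (ratio 8.90), and 105 of its 282 knockout UMIs lay in 1 cell. Cobl, an actin nucleator, had a ratio of 6.35, Rtl4 of 5.34, Lama3 of 4.36, Iigp1 of 3.97, Ccdc81 of 3.55 and Fgl2 of 3.16. Lama3, a laminin chain, differed within the AII-like subcluster too, with 61.6 CPM in knockout cells (52 UMIs) and 5.46 CPM in control cells (5 UMIs).

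Several of the genes lowest in knockout members have their highest level in subcluster 1. Ror1, a Wnt receptor, was at 30.1 CPM in knockout and 107 CPM in control members (ratio 0.280, 0.223 to 0.349). Esr1 was at 109 CPM against 297 CPM (ratio 0.366, 0.324 to 0.412), Igf1 at 67.8 CPM against 172 CPM (ratio 0.395, 0.338 to 0.461) and Tfap2c at 27.9 CPM against 72.7 CPM (ratio 0.383, 0.2996 to 0.488). Within subcluster 1 these ratios were nearer to 1: 0.701 for Esr1, 0.853 for Igf1 and 0.818 for Tfap2c, while Ror1 was at 0.517. Sgcd, a muscle and nerve sarcoglycan, was at 142 CPM against 378 CPM (ratio 0.375), with 0.543 in subcluster 1 and 0.6001 in the AII-like subcluster. Pde7b, Fgfr4, Aebp1, Sez6l and Col11a1 had ratios between 0.386 and 0.408.

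Genes of glycine release were close to even. Of 13 measured, 1 was at least 1.5-fold higher and 1 as much lower in knockout members, with a median log2 ratio of -0.05, against 5.94% higher, 5.69% lower and a median of 0.01 over the 10932 genes with at least 50 UMIs. The glycine receptor scaffold gephyrin, Gphn, was at 999 CPM against 1035 CPM (ratio 0.965, 0.920 to 1.01). Shmt2, a mitochondrial enzyme that makes glycine from serine, was at 16.1 CPM against 7.96 CPM (ratio 2.02, 1.23 to 3.44). Slc38a3, an amino acid transporter, had the lowest ratio, 0.604 (0.348 to 1.04). Slc6a9 had a ratio of 0.690 over all members, 0.814 in subcluster 1 and 0.820 in the AII-like subcluster. It is counted in this list, but the selection used it, so its ratio describes the choice.

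Among genes through which these cells receive signals, glutamate receptor genes were close to the background, with 2 of 25 higher and 1 lower. The kainate receptor Grik1 was at 309 CPM in knockout and 47.1 CPM in control members (ratio 6.56), and 549 UMIs lay in 1 knockout cell. The AMPA receptor Gria4 was at 1438 CPM against 1696 CPM (ratio 0.848) and the kainate receptor Grik2 at 1166 CPM against 1412 CPM (ratio 0.826). GABA receptor genes were less even, with 3 of 16 higher and 5 lower, against 5.94% and 5.69% of all genes. Gabrg3 was at 974 CPM against 1408 CPM (ratio 0.692), with 0.718 in subcluster 1 and 0.706 in the AII-like subcluster. Gabra2 was at 124 CPM against 62.3 CPM (ratio 1.99), but 0.488 in subcluster 1. Of 4 gap junction genes 0 passed 1.5-fold in either direction. Gjd2 was at 163 CPM against 189 CPM (ratio 0.862), Tjp1, a junction scaffold, at 468 CPM against 488 CPM, and Gjc1 and Panx2 had ratios of 1.17 and 0.859.

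Of 29 synaptic vesicle genes, 2 were higher and 3 lower, where 5.94% of all genes were higher and 5.69% lower. Syt1, the main calcium sensor of release, was at 2955 CPM against 3291 CPM (ratio 0.898), and Snap25 at 1690 CPM against 1405 CPM (ratio 1.20). Syt2 had the largest ratio, 14.2 (5.32 to 53.6), at 19.7 CPM against 1.38 CPM. It rested on 72 UMIs in 12 knockout cells, 27 of them in 1 cell, and 4 UMIs in 3 control cells. The Syt2 ratio in GABAergic cells was 0.341, the other direction. The lowest ratio of the list was that of Cplx4, a complexin of photoreceptor and bipolar ribbon synapses. Cplx4 was at 12.8 CPM against 40.9 CPM (ratio 0.314), and its ratio in GABAergic cells was 0.241. The rod markers moved alike, with a ratio of 0.433 over the whole list, and their part in the Cplx4 value was not tested. Of 28 voltage-gated channel genes, 3 were higher and 3 lower. Kcnip4 was at 3118 CPM against 2674 CPM (ratio 1.17), with 673 of 11409 knockout UMIs in 1 cell. Its ratio was 0.517 in subcluster 1 and 0.235 in the AII-like subcluster, the other direction. Cacna2d3 was at 543 CPM against 696 CPM, Cacna2d1 had a ratio of 2.58 and Kcnb2 of 0.469. Of 16 calcium buffer and sensor genes 4 were higher and 0 lower, with Pvalb at the top, Ncs1 at the bottom (0.715) and Calm2 (calmodulin) at 1.10. Of 30 adhesion genes 1 was higher and 3 lower. Nrxn3, a neurexin, was at 6239 CPM against 6531 CPM (ratio 0.955), Dab1 at 2238 CPM against 2797 CPM (ratio 0.8001), Pcdh9 at 1.62 and Cntn2 at 0.519.

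Of 26 measured transcription factors, 2 were higher and 5 lower, against 5.94% and 5.69% of all genes. Onecut2 and Tfap2c were at the ends, Tcf4 had a ratio of 0.811 and Pax6 of 0.913. Pax6 is a gene of the selection rule, so its ratio describes the choice. Of 11 neuropeptide genes, 2 were higher and 1 lower. Cck was at 15.3 CPM against 7.27 CPM (ratio 2.11), and Tac1, the substance P precursor, at 22.4 CPM against 62.0 CPM (ratio 0.362), with 65 of 179 control UMIs in 1 cell. Without subclusters 3, 8 and 9 its log2 ratio was 1.94. Chromogranins were closer, with Chgb at 1.44 and Chga at 1.10. Of 7 genes of GABA and other transmitters 2 were higher and 0 lower. Abat, which breaks down GABA, had a ratio of 0.765. Gad1 was one of the higher ones, and it and Gad2 were capped by the selection, so their ratios describe the choice.

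Genes that respond to interferons were higher in knockout members. Interferons are signals of infection, and the genes they turn on include antiviral proteins and the class I antigen presentation machinery: the heavy chains H2-K1 and H2-D1, their light chain B2m, the peptide pump Tap1 and Tap2, and immunoproteasome subunits such as Psmb8, Psmb9 and Psmb10. Of 25 measured antigen presentation genes, 14 were at least 1.5-fold higher and 1 lower, with a median log2 ratio of 0.68. Of 28 type I interferon genes, 13 were higher and 1 was lower (median 0.55). Among all genes 5.94% were higher and 5.69% lower, so the counts of higher genes lay far above the background and the counts of lower genes near it. The antigen presentation genes summed to 2536 CPM in knockout and 1813 CPM in control members, and the interferon genes to 2310 CPM against 1512 CPM.

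Among the class I genes, B2m was at 261 CPM in knockout and 169 CPM in control members (ratio 1.55, 1.39 to 1.73), with a UMI in 66.0% of knockout and 42.2% of control members. H2-K1 was at 289 CPM against 222 CPM (ratio 1.30, 1.18 to 1.44) and H2-D1 at 383 CPM against 308 CPM (ratio 1.25, 1.14 to 1.36). These heavy chain genes have near copies, and reads could be split among them. Tap1 was at 59.9 CPM against 34.3 CPM (ratio 1.75, 1.37 to 2.24) and Psmb9 at 68.9 CPM against 27.4 CPM (ratio 2.52, 1.95 to 3.28). Nlrc5, the transactivator of class I genes, was at 91.0 CPM against 50.2 CPM (ratio 1.81, 1.49 to 2.22). Among the interferon-induced GTPases, Igtp was at 88.6 CPM against 40.2 CPM (ratio 2.20), and Iigp1 at 49.5 CPM against 12.5 CPM (ratio 3.97). Pdia3, a chaperone of class I folding, was the 1 gene of the list that was lower, at 71.3 CPM against 107 CPM (ratio 0.665), and also 0.586 in the AII-like subcluster.

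Among the antiviral genes, Ifit3 was at 94.6 CPM in knockout and 31.5 CPM in control members (ratio 3.001, 2.38 to 3.82) and Ifit1 at 218 CPM against 103 CPM (ratio 2.11, 1.84 to 2.42). Bst2 (tetherin) was at 182 CPM against 70.6 CPM (ratio 2.58, 2.20 to 3.03), with a UMI in 48.9% of knockout and 17.5% of control members. The transcription factor Irf7 was at 83.4 CPM against 41.2 CPM (ratio 2.02, 1.63 to 2.52). Ifitm3 was even at 171 CPM against 173 CPM (ratio 0.992), but 411 of its knockout and 374 of its control UMIs lay in 1 cell each. Ifitm2, the 1 lower gene, was at 46.7 CPM against 79.3 CPM (ratio 0.589). Leaving out, in each library, the 5 cells richest in it gave a log2 ratio of 0.298.

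The same direction was present inside the largest subclusters. In the AII-like subcluster, 11 of 16 antigen presentation genes were higher and 1 lower (median log2 ratio 1.37), and 9 of 11 interferon genes were higher and 0 lower (1.45), where 4.85% of 5902 genes were higher and 4.25% lower. Xist had a ratio of 4.14 in the same cells, and the part of sex was not tested. The H2-K1 ratio was 3.14 and the H2-D1 ratio 2.53. The B2m ratio was 3.39, from 225 knockout and 72 control UMIs, and the Bst2 ratio 6.51, from 90 and 15 UMIs. In subcluster 1, 16 of 20 antigen presentation genes (median 0.76) and 13 of 20 interferon genes (0.79) were higher and 0 of either list lower, where 8.43% of 5139 genes were higher and 7.96% lower. Summed over the list, antigen presentation genes were higher in the knockout cells of 10 of 11 subclusters, with the interval clear of 1 in 8. Interferon genes were higher in 8 of 11, clear of 1 in 6. Subcluster 3, which carries the endothelial genes, went the other way on both lists, with ratios of 0.757 (0.710 to 0.808) and 0.912 (0.855 to 0.973). In its control cells, 717 of 1336 antigen presentation UMIs and 777 of 1248 interferon UMIs lay in 1 cell each. Its median share of UMIs per cell was higher in the knockout library, 0.444% against 0.312% for antigen presentation and 0.390% against 0.277% for interferon genes. Subclusters 8 and 11 went the other way on the interferon list, with ratios of 0.374 and 0.712. There 139 of 173 and 82 of 117 control UMIs lay in 1 cell each. Their median shares per cell were also lower in the knockout library, 0.067% against 0.089% and 0.056% against 0.082%. Without subclusters 3, 8 and 9, and without members in which markers of rods, cones, Müller glia, blood or vessel cells held over 1% of UMIs, the medians were positive: 0.68 and 0.75 for antigen presentation and 0.46 and 0.43 for interferon genes.

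GABAergic amacrine cells of the same libraries showed the direction too. There, 17 of 25 antigen presentation genes (median log2 ratio 0.87) and 27 of 28 interferon genes (1.17) were higher in the knockout library and 0 lower, where 6.1% of 12057 genes were higher and 3.64% lower. RNA of other cell types also differed between the GABAergic sets. Neutrophil markers were at 1375 CPM in knockout and 110 CPM in control GABAergic cells, Müller markers at 2290 against 809 CPM, monocyte and macrophage markers at 144 against 23.3 CPM, and erythroid markers at 1339 against 195 CPM. Their part in the GABAergic counts was not tested, nor was the difference between glycinergic and GABAergic cells.

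**Figure D4:**
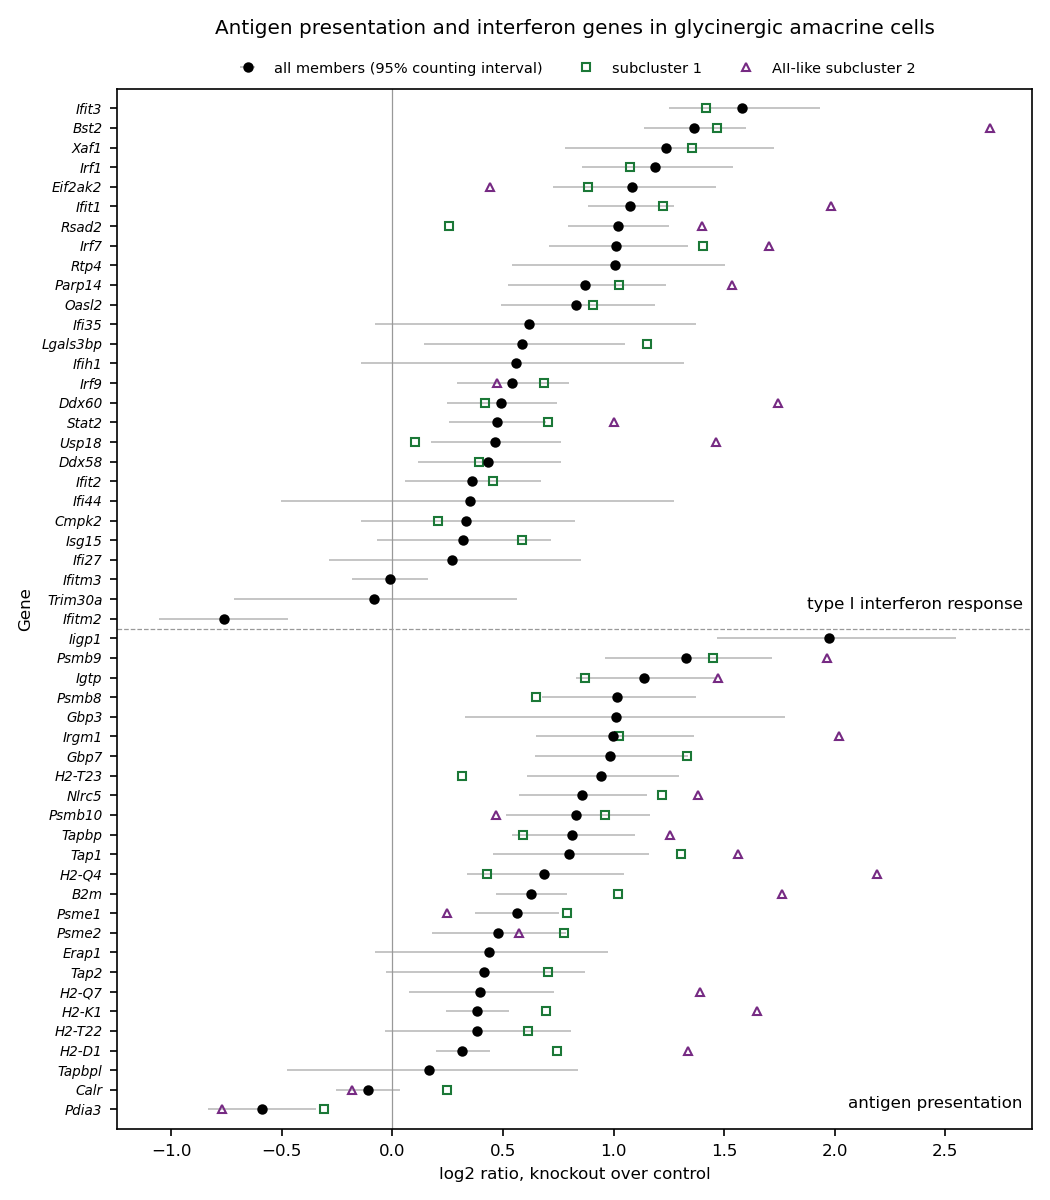
Log2 ratio of knockout over control for measured antigen presentation (lower block) and type I interferon (upper block) genes: black points are all members with 95% counting intervals, squares subcluster 1, triangles the AII-like subcluster 2, drawn where the gene had at least 50 UMIs there. Nearly all points lie right of 0, and most triangles lie right of the black point of the same gene.

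The start of 4 of these genes is shown because they were higher together and carry a letter pattern that interferon-driven factors of the IRF family are known to bind. Each line is the RefSeq promoter (build GRCm38.p6, 300 bases on the gene's strand, from 250 before to 50 after the start of the transcript). Capitals mark TTTC, any 2 bases and TTTC again, read on either strand (GAAA, any 2 bases and GAAA on the strand shown), and neighbouring matches may overlap. Ifit3 lies at chr19:34583279-34583578 (plus strand), Bst2 at chr8:71537423-71537722 (minus strand), B2m at chr2:122147437-122147736 (plus strand) and Igtp at chr11:58199306-58199605 (plus strand).
Ifit3: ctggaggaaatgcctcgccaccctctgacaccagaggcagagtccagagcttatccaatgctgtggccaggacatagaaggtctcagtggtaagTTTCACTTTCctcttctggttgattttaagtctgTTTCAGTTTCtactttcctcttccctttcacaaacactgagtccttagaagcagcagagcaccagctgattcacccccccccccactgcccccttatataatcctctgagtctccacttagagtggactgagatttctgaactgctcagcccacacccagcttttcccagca
Bst2: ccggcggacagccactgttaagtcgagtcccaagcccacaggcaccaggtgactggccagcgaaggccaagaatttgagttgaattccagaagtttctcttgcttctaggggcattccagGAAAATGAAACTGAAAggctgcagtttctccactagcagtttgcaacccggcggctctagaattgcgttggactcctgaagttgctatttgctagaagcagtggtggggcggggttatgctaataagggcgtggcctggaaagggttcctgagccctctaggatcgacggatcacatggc
B2m: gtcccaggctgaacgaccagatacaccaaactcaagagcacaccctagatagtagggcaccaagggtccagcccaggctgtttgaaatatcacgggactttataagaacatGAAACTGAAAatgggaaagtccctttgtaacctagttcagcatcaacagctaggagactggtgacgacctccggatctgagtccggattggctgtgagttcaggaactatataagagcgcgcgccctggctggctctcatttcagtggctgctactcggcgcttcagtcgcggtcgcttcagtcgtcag
Igtp: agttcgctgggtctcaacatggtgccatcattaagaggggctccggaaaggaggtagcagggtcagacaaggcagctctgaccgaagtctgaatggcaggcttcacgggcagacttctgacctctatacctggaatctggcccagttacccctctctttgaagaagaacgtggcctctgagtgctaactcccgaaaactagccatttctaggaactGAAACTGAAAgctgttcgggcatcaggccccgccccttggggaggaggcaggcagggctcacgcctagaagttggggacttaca
The pattern was present in 1131 of 32851 promoters (3.44%). It was present in 13 of the 23 measured interferon genes that the table held, 5 of them among the 11 that were at least 1.5-fold higher. It was present in 9 of the 21 antigen presentation genes held, 6 of them among the 12 higher. A match describes the letters only.

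Early response genes, the transcription factors that stimulation or dissociation switches on within minutes, did not share one direction. Over all members 3 of 18 were higher and 0 lower (median log2 ratio 0.21), against 5.94% and 5.69% of all genes. Fos was at 1655 CPM in knockout and 1434 CPM in control members (ratio 1.15, 1.11 to 1.20) and Egr1 at 845 CPM against 739 CPM (ratio 1.14, 1.08 to 1.21). In the AII-like subcluster, 0 of 11 were higher and 6 lower (median -0.68), with Fos at 0.456 and Egr1 at 0.471. Among all genes measured there, 4.85% were higher and 4.25% lower. In subcluster 1 0 of 12 passed 1.5-fold in either direction, with Fos at 1.24, where 8.43% of genes were higher and 7.96% lower. Summed over the list, the AII-like cells were at 2277 CPM in the knockout and 3429 CPM in the control library, while subcluster 5 was at 5205 CPM against 3154 CPM. The uneven Xist of the AII-like cells goes with this value too, and its part was not tested. In subcluster 3, 1290 of 3586 knockout and 946 of 1480 control UMIs lay in 1 cell each, and in subcluster 8, 175 of 211 control UMIs. The list's median share per cell was higher in the knockout library in subclusters 3 (0.253% against 0.134%), 8 (0.144% against 0.103%) and 9 (0.298% against 0.267%). It was lower in subclusters 2 (0.180% against 0.285%), 7 (0.500% against 0.821%) and 10 (1.33% against 1.46%). Ier3 had the lowest ratio, 0.715, with 40 of 153 knockout and 70 of 169 control UMIs in 1 cell each. The Ier3 ratio was 1.24 in subcluster 1, 1.09 in the AII-like subcluster and 3.20 in GABAergic cells. Atf3, a factor of stressed and injured neurons, had the largest ratio, 3.16, with 50 of its 100 knockout UMIs in 1 cell.

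**Figure D5:**
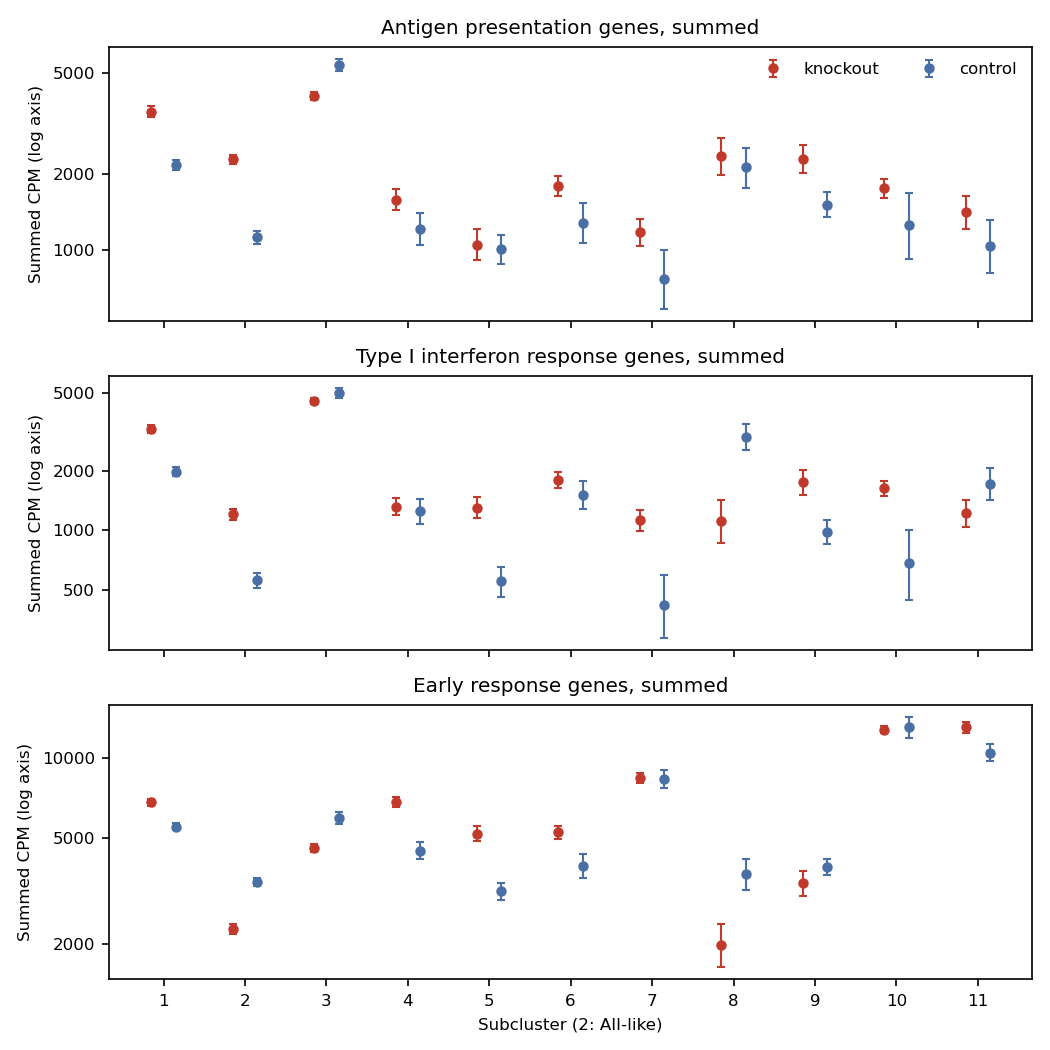
Summed level (CPM, log axis) of antigen presentation, type I interferon and early response genes in each subcluster, in knockout (red) and control (blue) cells, with exact Poisson 95% intervals. Antigen presentation is higher in the knockout cells of 10 of 11 subclusters. Summed early response genes are lower in subclusters 2 (AII-like), 3, 8 and 9 but higher in subclusters 1, 4, 5, 6 and 11. In subclusters 3 and 8, 946 of 1480 and 175 of 211 control early response UMIs lay in 1 cell each.

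Genes of neuron injury and regeneration had 8 of 16 higher and 0 lower (median log2 ratio 0.51), against 5.94% and 5.69% of all genes. Gap43, a growth cone protein, was at 50.3 CPM in knockout and 13.8 CPM in control members (ratio 3.63, 2.57 to 5.25). Tubb3, a neuronal tubulin, was at 95.9 CPM against 35.3 CPM (ratio 2.72), and Stmn2, a regulator of microtubules, at 85.5 CPM against 34.6 CPM (ratio 2.47). Jun was at 400 CPM against 234 CPM (ratio 1.71, 1.56 to 1.88), with 1.15 in subcluster 1 and 0.957 in the AII-like subcluster. In subcluster 1, 3 of 7 measured genes were higher and 0 lower (median 0.50), and in the AII-like subcluster 0 of 4 passed 1.5-fold. Among all genes, 8.43% were higher and 7.96% lower in subcluster 1, and 4.85% and 4.25% in the AII-like subcluster. Nefm was lower, at 80.1 CPM against 118 CPM (ratio 0.680), and Gadd45a at 0.844. Both are highest in subcluster 1, where their ratios were 1.34 and 1.70.

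Of 6 complement genes, 5 were higher and 0 lower. For this and the next lists, 5.94% of all genes were higher and 5.69% lower. Serping1, the C1 inhibitor, was at 130 CPM in knockout and 57.1 CPM in control members (ratio 2.27, 1.90 to 2.73), with 1.86 in subcluster 1 and 2.82 in the AII-like subcluster. Cfb had a ratio of 3.23, with 66 of 86 knockout UMIs in 1 cell, Clu (clusterin) of 1.60 and Cd59a of 1.06. Without subclusters 3, 8 and 9, 3 complement genes were measured and their median log2 ratio was -0.01. Without members holding over 1% of other markers, the log2 ratio of Cfb was -0.51. NF-κB response genes had 3 of 17 higher and 6 lower (median -0.41). Il1b, a cytokine of myeloid cells, was at 8.75 CPM against 128 CPM (ratio 0.0681), with 150 of 371 control UMIs in 1 cell, and Ccl2, a chemokine, at 130 CPM against 7.62 CPM (ratio 17.0), with 264 knockout UMIs in 1 cell. Neutrophil markers had a ratio of 0.0795 in the same cells, and their part in this list was not tested. Lcn2 (lipocalin 2) was at 364 CPM against 335 CPM (ratio 1.09), with 591 of 1332 knockout and 306 of 968 control UMIs in 1 cell each, and its ratio was 1.59 in subcluster 1 and 9.87 in GABAergic cells. A Lcn2 UMI was present in 75.4% of knockout and 68.0% of control members, against 70.3% and 70.7% of cells with rod RNA, a share no higher in control members than in those cells. Its summed level varied by subcluster, with 1125 CPM in knockout and 302 CPM in control cells of subcluster 3, and 188 against 1719 CPM in subcluster 6. Over the whole NF-κB list, 929 of 2242 knockout UMIs of subcluster 3 and 367 of 406 control UMIs of subcluster 6 lay in 1 cell each. The median share of the list per cell was close between libraries, 0.064% against 0.057% in subcluster 3 and 0.073% against 0.059% in subcluster 6. Sod2 had a ratio of 0.839. Of 13 JAK-STAT3 genes 2 were higher and 0 lower, with Serpina3n at 2.19, Junb at 1.25 and Lifr at 0.853.

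Genes of autophagy, the process that needs Atg5, were close to even in glycinergic cells. Of 36 autophagy machinery genes 1 was higher and 0 lower, with a median log2 ratio of 0.04, against 5.94% and 5.69% of all genes. Atg4b, a protease that processes the Atg8 proteins, was the 1, at 37.7 CPM in knockout and 24.6 CPM in control members (ratio 1.53, 1.14 to 2.07). Ulk2, a kinase that starts autophagy, was at 0.695, Map1lc3a at 1.17 and Gabarapl2 at 1.04. Of 15 autophagy receptors 0 passed 1.5-fold in either direction. RNA of Sqstm1 (p62), a cargo receptor whose protein builds up when autophagy is blocked, was at 137 CPM against 106 CPM. Its ratio was 1.30 (1.12 to 1.498), with 1.06 in GABAergic cells, and protein was not measured here. Wdfy3 was at 0.929, Sec62 at 1.02 and Rtn3 at 1.00. Of 32 lysosome genes 0 were higher and 1, Gla, was lower, at 0.582. Cd63, a tetraspanin of late endosomes, was at 1.44, and the proton pump subunits Atp6v0c and Atp6v1a at 1.05 and 1.00.

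Energy genes were close to even, and stress genes had single members that were not. Of 13 mitochondrially encoded genes 0 passed 1.5-fold, where 5.94% of all genes were higher and 5.69% lower. mt-Co3 was at 7585 CPM against 6545 CPM (ratio 1.16), mt-Atp6 at 1.03, mt-Nd3 at 1.20 and mt-Nd4l at 0.686. Of 21 glycolysis genes 1 was higher: Aldoc had a ratio of 1.54, with 0.942 in subcluster 1, Gapdh of 1.17, Aldoa of 1.12 and Slc16a1 of 0.808. Of 14 heat shock genes 1 was higher, Hspb1 at 1.79, while Hspa8 was at 1.21, Hsp90aa1 at 1.05 and Hsph1 at 0.763. Of 14 genes of the unfolded protein and integrated stress response 3 were higher, with Atf5 at 2.98, and Calr, Hsp90b1 and Pdia4 at 0.926, 0.878 and 0.778. Of 19 oxidative stress genes 3 were higher and 1 lower. The metallothionein Mt2 was at 163 CPM against 42.9 CPM (ratio 3.79), with 143 knockout UMIs in 1 cell. Slc7a11, the cystine transporter, had a ratio of 0.251, with 39 of 66 control UMIs in 1 cell. Its log2 ratio was 0.10 without members holding over 1% of other markers. The ferritin genes Fth1 and Ftl1 were at 0.803 and 1.31. For Fth1, 831 of 4625 knockout and 1077 of 4546 control UMIs lay in 1 cell each. The Fth1 ratio was 1.51 in subcluster 1, 1.09 in the AII-like subcluster and 2.31 in GABAergic cells. Of 15 growth arrest genes 1 was higher, Btg2 at 1.58, and 1 lower, Trp53inp1 at 0.639. Of 6 sex-linked genes 0 were higher and 1, Kdm5d, was lower, at 0.643.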

How the data were processed

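The deposited values are unnormalised UMI counts for every gene in every barcode of 2 libraries, made by the authors with Cell Ranger 6.0.0 on mm10, per the submitters' processing notes, which also name Seurat 5.2.1. No source used here names the gene annotation. Per the labels' protocols, retinas were dissociated with papain and libraries were made with 10x 3′ chemistry. The libraries held 50676223 (knockout) and 43669961 (control) UMIs in 5229 and 8690 barcodes. Of 32285 features, 40 repeat a symbol, and the first of each was used. No table column of other samples was present (0).

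Members were chosen cell by cell from the counts. The members and the gene lists were chosen with earlier results of these data known, and cell types were rebuilt here, without a doublet caller. Counts were summed per library and divided by the summed UMIs. Levels have exact Poisson intervals, ratios exact conditional binomial intervals and shares Clopper-Pearson intervals, at 95%. With 1 library per group no test was made. A gene is called higher or lower at a ratio of 1.5, with at least 100 UMIs over both libraries (50 in lists and in single subclusters). Log2 ratios have 0.5 added to both counts. Subclusters came from 2000 variable genes, 15 principal components, 15 neighbours and Leiden resolution 0.8 (seed 1). Leading genes have at least 50 UMIs in the subcluster and the highest fold over the other members.

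Genes were named by rule. A named gene had at least 100 UMIs, a UMI in at least 5% of members of the library where it was higher, and a level no lower than in the other cells. Named were the 12 largest and 12 smallest ratios, the largest, smallest and 2 highest genes of each list, the 15 largest and 8 smallest glycinergic over GABAergic ratios, the 5 leading genes of each subcluster, the selection genes, subtype markers, Atg5, Sqstm1, Xist and Ddx3y. Genes outside the rule, such as Meis2, Gadd45a, Serping1, Gap43, Lcn2 and several interferon genes, were chosen after their values were seen. Some genes that the rule names are not reported here. The code was tested on simulated data. Software was Python 3.11.15, numpy 2.4.6, scipy 1.17.1, pandas 2.3.3, scanpy 1.11.5, leidenalg 0.10.2, scikit-learn 1.9.0, matplotlib 3.10.9 and, for TMM scaling as an alternative, edgeR 4.0.16 in R 4.3.3.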

Additional observations from a re-analysis of the deposited data

Results flagged for a closer look

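Among genes named for an extreme ratio or within a list, and with at least 50 UMIs in GABAergic cells, 6 were at least 1.5-fold apart between libraries in opposite directions in glycinergic and GABAergic amacrine cells. None of these differences was tested, since there was 1 library per group. Onecut2 had a ratio of 8.904 in glycinergic and 0.2591 in GABAergic cells, with 105 of its 282 knockout UMIs in 1 glycinergic cell. Esr1, a gene of subcluster 1, had ratios of 0.3657 and 1.845. The NMDA receptor gene Grin3a had ratios of 0.3652 and 3.161, from 31 knockout and 67 control UMIs in glycinergic cells. Neutrophil markers were at 1375 CPM in knockout and 110 CPM in control GABAergic cells, against 97.3 and 1224 CPM in glycinergic cells, and their part in the Il1b and Ifitm2 values was not tested. Il1b had ratios of 0.06809 and 15.7, with 150 of 371 control UMIs in 1 glycinergic cell. Ifitm2 had ratios of 0.5895 and 9.313, with 100 of 171 knockout and 83 of 229 control UMIs in 1 glycinergic cell each. Slc7a11 had ratios of 0.2512 and 4.044, with 39 of 66 control UMIs in 1 glycinergic cell. Ebf3, named as a subtype marker, had ratios of 0.476 and 1.66.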

How the results depend on the processing

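No paired analysis was possible because there was 1 library per group. The cause of the moves below was not tested. The share of kept cells was 6.07% in the knockout library at 3 or more Slc6a9 UMIs, 5.90% against 2.61% in the control library at 4000 UMIs per cell, 4.95% against 2.51% with no Gad UMI, and 2.77% against 1.69% after thinning to 2000 UMIs before selection. With Müller genes under 0.05% the control share was 2.55%. Per 100 GABAergic cells the thinned counts were 64.5 (knockout) and 119 (control), and with Müller genes under 0.05% the knockout count was 101.

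Genes at least 1.5-fold higher and lower numbered 564 and 611 when CPM were averaged over cells, 200 and 163 in thinned cells, and 1122 and 1164 at 20 UMIs. Scaling by TMM or by the median of ratios left all 8 summaries and all 24 extreme ratios on their side. Other settings moved more of the 24 out of their counting interval: 9 with free RNA taken away, 7 with no Gad UMI and 6 without the 5 top cells. In thinned cells 8 moved and 13 did not, and the others had too few UMIs. The antigen presentation median was 0.99 with free RNA taken away and 0.99 without the 5 top cells of each gene, and the interferon median was 1.27 with free RNA taken away. The autophagy median was 0.31 in thinned cells. The log2 ratio of Clu was -0.088 in thinned cells, and that of Ifitm2 was 0.30 without its 5 top cells.

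Other settings were added after seeing the data. In the AII-like subcluster alone 86 genes were higher and 74 lower, and medians were 1.37 for antigen presentation, 1.45 for interferon, -0.68 for early response and 0.063 for complement genes. There log2 ratios were -0.75 for Cacna2d1, -0.063 for Jun, 0.45 for Ifitm2 and -0.24 for Btg2. In subcluster 1 alone 175 were higher and 151 lower, the autophagy median was 0.18, and log2 ratios were -0.49 for Grik1, -0.98 for Gabra2, -0.15 for Pcdh9, 0.57 for Cntn2, -0.73 for Clu and -0.059 for Aldoc. Without subclusters 3, 8 and 9 the complement median was -0.0068, Clu -0.0068 and Tac1 1.94. Without members with over 1% of other markers, Ifitm2 was 0.076, Cfb -0.51 and Slc7a11 0.10. With equal weights of subclusters, Nxph1 was -0.59, Gabra2 -0.50 and Hspb1 -0.47. Of the 24 extreme ratios, 16 moved out of their counting interval under these weights, 1 reversed and 7 stayed.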
